A study of Mus musculus with 8 samples.

Results

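H3K27me3, the trimethylated form of lysine 27 of histone H3, was at least 2-fold higher in MommeD43 than in WT neural stem cells (NSCs) in 267 of the 11707 autosomal regions of the study's table, or 2.28%. These raised regions were selected on the measured difference itself, a MommeD43 minus WT value of at least 1 on the log2 scale, so their count, direction and differences are a description and were not tested. A difference of -1 or less was seen in 343 autosomal regions, or 2.93%. Both counts, and which of them is larger, depend on the processing. With both columns brought to the same total over all regions, 138 regions were at least 1 higher and 667 at least 1 lower, and with the trend of the differences with GC content taken off, 216 were at least 1 higher and 80 at least 1 lower. The X chromosome, which carries the mark on its inactive copy, had 560 further regions that were at least 1 higher among its 1878, and is used below only as a comparison. Its values do not separate the active from the inactive copy. By immunofluorescence, the study found modestly but significantly less H3K27me3 on the inactive X of MommeD43 NSCs. The study also considers ChIP-seq poorly suited to comparing relative levels of the mark. The largest difference among the raised regions lay over the start of Ajap1, the longest run of raised regions lay around Tbx3 and Tbx5 on chromosome 5, and the raised regions as a group were richer in G and C than other autosomal regions.

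The cells were primary NSCs cultured from the cortex of female C57BL/6J embryos. Both genotypes carried a GFP tag on both copies of the endogenous Smchd1 gene. MommeD43 cells were in addition homozygous for the MommeD43 missense allele, whereas WT cells had the tagged protein without it. Each genotype was represented by 3 H3K27me3 chromatin immunoprecipitation (ChIP-seq) libraries from separate cell lines, grown for under 10 passages according to the labels, and by 1 whole cell extract (WCE) library that the authors used for peak calling. The deposited values are 1 pooled column per genotype, a mean over the 3 libraries, so no SD, n or p-value belongs to any difference below and variation between cell lines could not be seen.

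Polycomb repressive complex 2 writes H3K27me3 through its catalytic subunit EZH1 or EZH2, and the mark is read by Polycomb repressive complex 1. In neural stem cells it typically covers the CpG-rich starts and the surroundings of developmental genes that are silent in the lineage, such as factors of mesoderm, endoderm or other brain regions. SMCHD1 is a non-canonical SMC protein that is recruited to the inactive X chromosome and to certain autosomal gene clusters after Polycomb marks, and takes part in their silencing.

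Values are given on 3 scales. The level is the deposited log2 count of a region after scaling to library size, not divided by length. The read number is the geometric mean count per library, recovered from the level, and read density is that number per kilobase (kb). Neither is scaled to library size: each read stood for 3.27 normalized counts in WT and 2.63 in MommeD43. Read numbers and densities set side by side for the genotypes therefore overstate a rise in MommeD43, and the scaled change is the difference of the levels. The error beside a difference is the smallest counting error that these reads allow. It leaves out the spread between cell lines, and neighbouring regions are not independent. In a bulk sample, the mark in more cells and more of it per cell cannot be told apart.

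The sequences behind the leading regions are shown first, since CpG content bears on where the mark is placed. They are the bases upstream of the RefSeq start on GRCm38.p6 for genes among the 25 largest differences, 5′ to 3′ on the gene's strand and without bases that belong to exons of coding transcripts. Shown are the 6 leading genes for which the RefSeq table left at least 150 such bases. CG dinucleotides are in capitals. Ajap1 (chr4:153482831-153483080, minus strand) held 43 of them in 250 bases, a number that 0.712% of the 32851 promoters in the RefSeq table reached. Foxc1 (chr13:31806396-31806632, plus strand) held 29 in 237 bases, Tmem132c (chr5:127241576-127241807, plus strand) 20 in 232 bases, Cdh8 (chr8:99416504-99416721, minus strand) 19 in 218 bases, Ntf3 (chr6:126164961-126165210, minus strand) 14 in 250 bases and Epb41l3 (chr17:69075427-69075646, plus strand) 7 in 220 bases. Counted over the full 250 bases, the number at Foxc1 was reached by 6.78% of all promoters, that at Tmem132c by 16.3%, at Cdh8 by 17.9%, at Ntf3 by 29.4% and at Epb41l3 by 40.3%, so the promoters ranged from CpG-dense to ordinary.
Ajap1: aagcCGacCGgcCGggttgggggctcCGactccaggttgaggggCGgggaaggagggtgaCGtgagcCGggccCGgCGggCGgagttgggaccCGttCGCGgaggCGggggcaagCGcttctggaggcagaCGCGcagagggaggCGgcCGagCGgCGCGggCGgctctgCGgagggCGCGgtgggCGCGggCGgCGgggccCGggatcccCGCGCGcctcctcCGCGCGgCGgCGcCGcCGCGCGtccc
Foxc1: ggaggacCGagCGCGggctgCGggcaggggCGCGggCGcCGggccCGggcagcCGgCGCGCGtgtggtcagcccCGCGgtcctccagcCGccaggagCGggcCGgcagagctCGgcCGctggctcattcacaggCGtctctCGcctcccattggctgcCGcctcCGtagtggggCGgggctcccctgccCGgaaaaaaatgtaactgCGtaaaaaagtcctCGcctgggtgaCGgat
Tmem132c: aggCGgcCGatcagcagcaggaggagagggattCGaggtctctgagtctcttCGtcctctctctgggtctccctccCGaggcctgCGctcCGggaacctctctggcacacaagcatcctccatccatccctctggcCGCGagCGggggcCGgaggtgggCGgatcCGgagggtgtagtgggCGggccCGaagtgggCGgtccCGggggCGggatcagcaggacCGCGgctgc
Cdh8: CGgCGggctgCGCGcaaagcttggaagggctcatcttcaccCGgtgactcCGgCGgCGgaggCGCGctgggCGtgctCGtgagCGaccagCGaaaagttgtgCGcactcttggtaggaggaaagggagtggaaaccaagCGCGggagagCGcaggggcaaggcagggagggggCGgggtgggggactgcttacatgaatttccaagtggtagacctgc
Ntf3: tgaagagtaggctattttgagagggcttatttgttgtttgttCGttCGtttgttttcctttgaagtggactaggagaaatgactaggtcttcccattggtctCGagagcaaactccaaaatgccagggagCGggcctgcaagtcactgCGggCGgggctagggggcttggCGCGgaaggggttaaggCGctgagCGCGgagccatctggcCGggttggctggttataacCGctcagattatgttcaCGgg
Epb41l3: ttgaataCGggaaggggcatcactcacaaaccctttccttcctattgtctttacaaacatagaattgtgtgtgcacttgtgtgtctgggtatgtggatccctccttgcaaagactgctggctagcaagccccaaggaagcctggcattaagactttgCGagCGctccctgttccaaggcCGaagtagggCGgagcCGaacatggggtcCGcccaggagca

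A CG dinucleotide is the same on both strands, and 92.1% of all promoters in the table held at least 1 in the 250 bases before the start. The median promoter held 6. The 99 promoters matched by symbol to the 138 protein-coding genes that start in a raised region held a median of 16 (quartiles 9.5 and 22), against 13 (6 and 20) for 4392 promoters in the other autosomal regions.

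For 3 raised regions without any protein-coding gene, picked after their values were seen, the window of 250 bases with the most CG dinucleotides is shown, outside annotated exons and on the plus strand. Being the densest of its region, such a window exceeds the region's mean by construction. The window between Tbx3 and Tbx5 (chr5:119803911-119804160) held 27, a number that 8.56% of the promoters reached, and the window on the proximal side of Dio3 (chr12:110187461-110187710) held 26, which 9.59% reached. The window between Gpat3 and Nkx6-1 (chr5:101021051-101021300) held 9, which 40.3% reached.
Near Tbx5: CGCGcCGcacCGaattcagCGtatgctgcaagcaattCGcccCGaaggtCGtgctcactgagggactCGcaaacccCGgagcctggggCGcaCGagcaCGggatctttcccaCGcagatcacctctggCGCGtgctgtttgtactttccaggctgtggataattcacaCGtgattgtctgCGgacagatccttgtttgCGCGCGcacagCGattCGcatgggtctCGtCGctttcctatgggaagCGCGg
Near Dio3: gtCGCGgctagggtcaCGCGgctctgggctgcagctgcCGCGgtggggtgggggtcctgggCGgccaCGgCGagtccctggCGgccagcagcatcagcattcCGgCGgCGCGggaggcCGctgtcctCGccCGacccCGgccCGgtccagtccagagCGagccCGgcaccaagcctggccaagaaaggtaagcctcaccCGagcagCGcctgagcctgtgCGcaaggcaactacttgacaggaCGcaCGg
Near Gpat3: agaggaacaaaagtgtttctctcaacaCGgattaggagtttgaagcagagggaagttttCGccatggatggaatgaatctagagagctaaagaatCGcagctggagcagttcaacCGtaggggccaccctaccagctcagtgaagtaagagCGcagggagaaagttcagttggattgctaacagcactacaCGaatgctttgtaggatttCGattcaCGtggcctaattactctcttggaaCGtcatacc

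Most raised regions lay just past the threshold. The median difference was 1.25 (quartiles 1.09 and 1.49), 65 regions reached 1.5, 24 reached 2 and 3 reached 3. Just inside the threshold were a region of chromosome 1 whose nearest gene start was Dsel (1.0008), the Gad1 region (1.0014) and a region of chromosome 2 holding the starts of Chrm4 and Mdk (1.0021). Just outside it were the Fgfr2 region (0.9987), the Tmem221 region (0.9985) and the Ttc34 region (0.996). These 6 regions differed from each other by less than the counting error of any of them, so membership at the edge is arbitrary.

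The raised regions started from a low level. Their median WT read density was 5.28 reads per kb (quartiles 3.85 and 9.40), against 11.1 (8.73 and 14.6) in the other autosomal regions, and 210 of 267 (78.7%) lay below the autosomal median. In MommeD43 their median density was 16.8 reads per kb, against 14.0 in the others, and 171 (64.0%) lay above the autosomal median. The WT value is part of the difference that chose the regions, which favours low WT values, and a region faint in WT could enter the table through a peak called in MommeD43. Among 10 groups of regions ordered by WT density, 168 of the 1171 regions with the lowest density (14.3%) were raised, against 0.171% to 1.88% in the other groups. Fewer than 50 reads per library in WT lay behind 119 raised regions (44.6%), against 14.9% of the others. With counting error alone taken into account, the 95% interval of the difference lay wholly at or above 1 for 143 of the 267, and reached below 1 for the rest. The same difference chose the regions, so these intervals are no test of it.

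**Figure D1:**
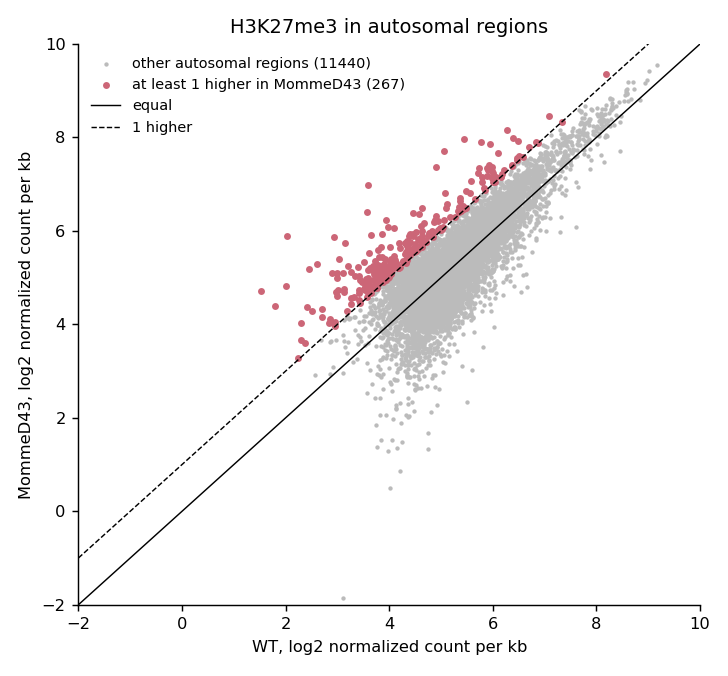
H3K27me3 per kb of each autosomal region in WT (horizontal) and MommeD43 (vertical), as log2 normalized counts per kb. Points are regions, red for the 267 raised ones, and the dashed line marks a difference of 1. Most red points sit at WT values below the bulk of the grey points, whose median was 5.18, while their own median was 4.11.

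Sequence and position were not used by the rule. Median GC content was 49.1% in the raised regions (quartiles 46.5% and 51.4%, 95% order-statistic interval of the median 48.7% to 49.8%) and 46.2% (43.7% and 49.0%) in the other autosomal regions, and 204 of 267 (76.4%) lay above the autosomal median. The share of regions that were raised went from 0.854% in the poorest to 5.89% in the richest of 10 groups ordered by GC content, while the share at least 1 lower went from 22.9% to 0.0854%. Over the same groups the median difference of all regions moved from -0.61 to 0.39, so the whole table, not the raised regions alone, shifted with GC content. With this trend taken off, 151 of the 267 stayed at or above 1, and the 216 autosomal regions then at or above 1 were these 151 and regions that had been below 1 before. The part of base composition or of library amplification in the differences was not tested. The ratio of observed to expected CpG was 0.272 against 0.226 (medians), and repeats marked in the reference covered 19.5% against 23.2%.

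Length and the shares in and outside genes, taken over all 267, were close to those of the other regions. The nearest gene start was more often far away. Median length was 11600 bp (quartiles 7550 and 21650) against 10400 bp (6800 and 18350). A protein-coding gene start lay in 106 raised regions, 39.7% (95% exact binomial interval 33.8% to 45.8%), against 37.7% of the others. A further 71 (26.6%) lay in a gene without its start, against 26.5%, and 90 (33.7%) overlapped no protein-coding gene, against 35.8%, and are called gene-free below. The share with a gene start was uneven among the raised regions. It was 59.1% in the 132 that lay outside the runs of 3 or more described below. The nearest protein-coding start was over 100 kb away for 73 of all 267 raised regions (27.3%), inside genes or outside them, and for 16.1% of the others. Among gene-free regions alone it was so for 44 of the 90 raised ones (48.9%) and for 29.9% of the others. The 343 regions that were at least 1 lower looked different, with a median GC content of 38.5% and a gene start in 18.7%. The 560 X-linked regions that were at least 1 higher also had a low median GC content, 40.04%, and a gene start in 19.8%.

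**Figure D2:**
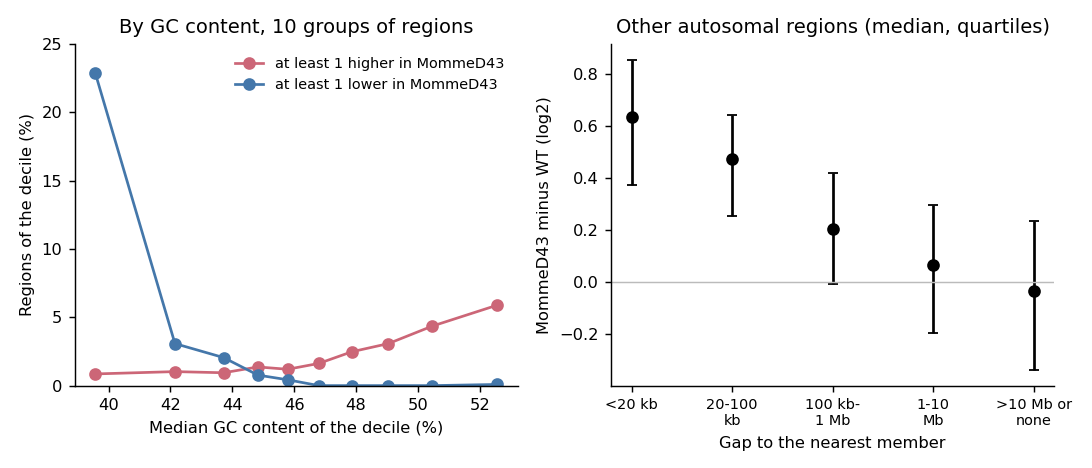
Left, share of autosomal regions at least 1 higher (red) or lower (blue) in MommeD43 in 10 groups ordered by GC content, placed at each group's median GC. Right, difference of the autosomal regions that were not raised, by their gap to the nearest raised region, as medians with quartile bars. The red share climbs from 0.854% to 5.89% across the GC groups, and the median difference falls from 0.63 under 20 kb to -0.03 beyond 10 Mb.

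Raised regions were unevenly spread over the autosomes. Chromosome 5 held 56 among its 742 regions (7.55%), chromosome 11 held 38 of 912 (4.17%) and chromosome 4 held 29 of 818 (3.55%). These 3 chromosomes carried 46.1% of the raised regions and 21.1% of all autosomal regions. At the other end, chromosome 18 held 0 among 356, chromosome 19 held 1 of 400 and chromosomes 3, 9 and 16 held 2 each. Median GC content moved with the share: it was 46.8 to 47.9% in the 6 autosomes whose share was above that of all autosomes, and 44.7 to 47.3% in the other 13. Its part in the shares was not tested.

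**Figure D3:**
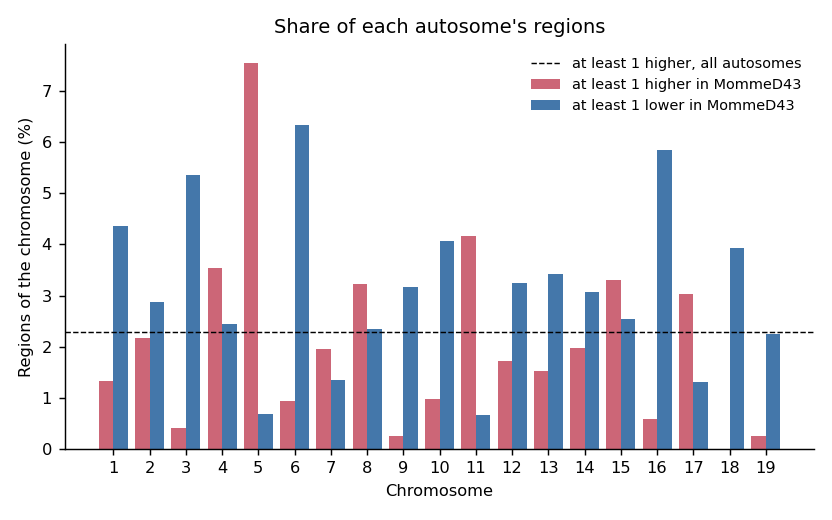
Share of each autosome's regions that were at least 1 higher (red bars) or at least 1 lower (blue bars) in MommeD43, in percent. The dashed line is the share at least 1 higher over all autosomes, 2.28%. Chromosome 5 stands highest among the red bars with 7.55%, and chromosome 18 has none.

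They also lay near each other. Another raised region lay within 1 Mb for 173 of 267 (64.8%) and within 200 kb for 144 (53.9%). For the 343 lowered regions the same counts against each other were 172 (50.1%) and 118 (34.4%). No such share was computed for autosomal regions in general. The smallest gap between regions was 1000 bp, so a broad domain can appear as several neighbouring regions. Taken as groups whose members each lie within 1 Mb of the next, the 267 fell into 94 single regions, 19 pairs and 21 runs of 3 or more, and the runs held 135 (50.6%). The runs spanned 138.5 to 3003 kb. Between their ends lay 122 regions that were not raised, and 117 of these (95.9%) had a difference above 0, against 6487 of all 11440 autosomal regions that were not raised (56.7%). GC content was high in the runs too, with a median over the run's regions above the autosomal median of 46.3% in 19 of the 21, and its part in the count was not tested. Over the whole autosomal set, the regions that were not raised had a median difference of 0.63 where a raised region was under 20 kb away (n = 99), 0.47 at 20 to 100 kb, 0.21 at 100 kb to 1 Mb, 0.06 at 1 to 10 Mb and -0.03 beyond. GC content moved with the distance too, from a median of 49.3% in the nearest group to 45.2% in the farthest. With the GC trend taken off, the medians of the same 5 groups were 0.43, 0.23, 0.05, -0.02 and -0.04.

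Among the 25 largest differences backed by at least 50 reads in MommeD43, 12 lay on chromosome 5, 11 held a protein-coding start, 4 lay inside a gene without its start and 10 overlapped no protein-coding gene. The smallest of the 25 was 1.97, and all 25 stayed at or above 1 with the GC trend taken off. WT had fewer than 50 reads per library in 14 of them.

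**Figure D4:**
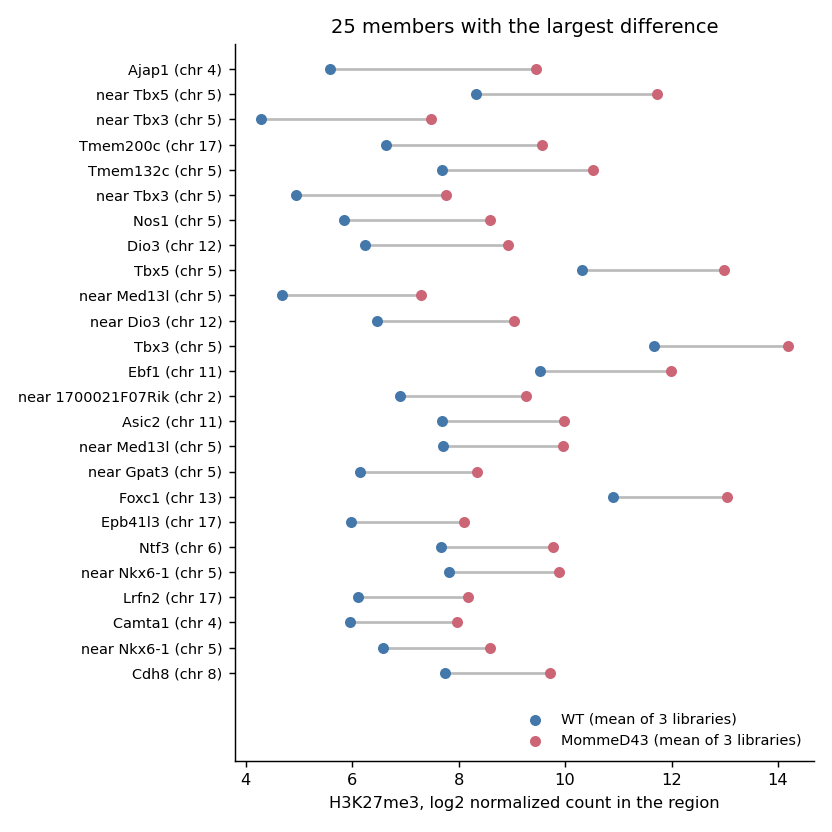
Levels of the 25 raised regions with the largest difference, as log2 normalized counts in WT (blue) and MommeD43 (red), each the authors' mean of 3 libraries. Regions are named by the gene whose start or body they overlap, or else as near the closest start. WT levels run from 4.29 to 11.7 and MommeD43 levels from 7.29 to 14.2.

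Ajap1, which encodes a protein of adherens junctions, had the largest difference. Its region (chr4:153475551-153487450), which includes the CpG-dense promoter printed above, had a level of 5.59 in WT and 9.46 in MommeD43, or 14.8 and 267.8 reads per library, a difference of 3.87 (counting error 0.22). The WT product of 3 counts was 3220, whose most even split is 10, 14 and 23 reads. A split is not unique and does not show which library held which count. About 2 Mb proximal to it on the same chromosome, 6 raised regions lay inside Camta1, a calmodulin-binding transcription activator gene, at 1.39 to 2.01, none over its start.

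T-box factors of limb and heart lay in the run with the highest single difference of any run. By the median of its raised regions, this run (2.04) came below the shorter run at Dio3 (2.58). The region holding the start of Tbx3 (chr5:119640501-119715550) went from a level of 11.67 to 14.19, 999 to 7087 reads, a difference of 2.51 (error 0.03). The region holding the start of Tbx5 (chr5:119817501-119855950) went from 10.32 to 12.98, 390 to 3073 reads, a difference of 2.67 (error 0.04). Both were already marked in WT, at 13.3 and 10.2 reads per kb. Of the regions between them, the one next to Tbx5 (chr5:119789001-119815900) had 98.5 reads in WT and 1288 in MommeD43, a difference of 3.40 (error 0.09), and a small one (chr5:119744751-119752450) had 9.44 reads in WT and differed by 2.81. A small region on the other side of Tbx3 (chr5:119623551-119630350) had 6.00 reads in WT and differed by 3.19. The full run reached from Nos1, the neuronal nitric oxide synthase gene, past Oas3 (chr5:117836151-120839200), with 16 raised regions of 46, and all 30 others had a difference above 0 (median 0.46). At its Nos1 end the difference was 2.74 on 17.6 WT reads, in the gene body 55119 bp from the start, and in the 3 gene-free regions whose nearest start was Med13l it was 1.21, 2.26 and 2.61. Of the other 7 raised regions of the run, that in a second part of Nos1 had a difference of 1.01 and those from Rbm19 past Oas3 had 1.08 to 1.83.

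**Figure D5:**
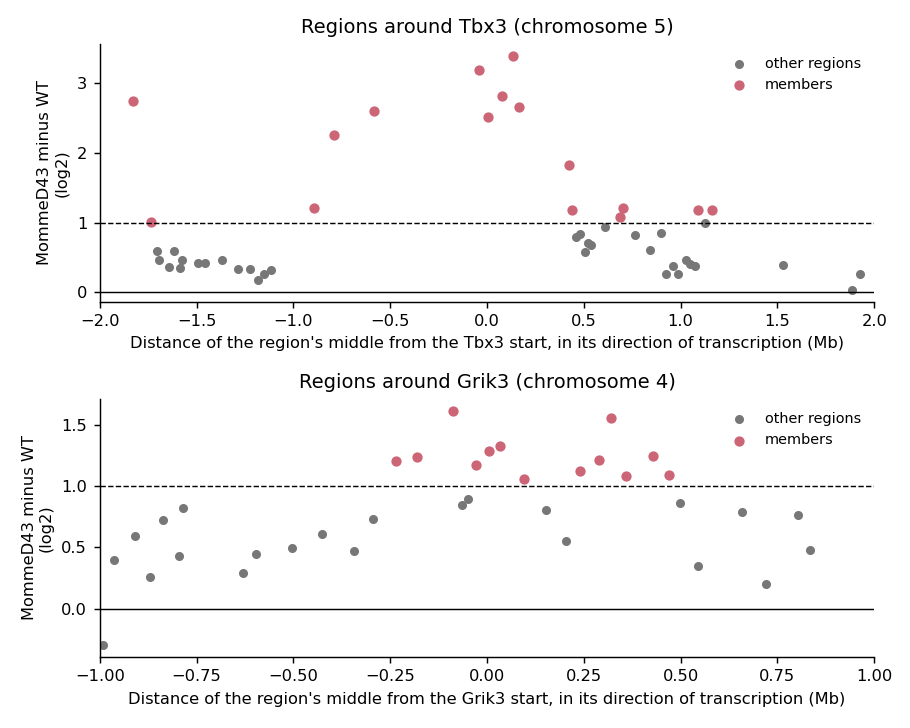
Difference of each autosomal region (log2) against its distance in Mb from the start of Tbx3 (top) and of Grik3 (bottom). Red points are raised regions, grey points the other regions and the dashed line a difference of 1. Around Tbx3, 16 of the 49 regions shown are raised and the highest reaches 3.40. Around Grik3, 13 of 36 are raised and the highest reaches 1.61.

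Other runs had smaller differences at their peak. Around Grik3, the gene of a kainate-type glutamate receptor subunit (chr4:125219151-125965450), 13 of 17 regions were raised, all between 1.06 and 1.61, and the 4 others lay at 0.55 to 0.90. The region holding the Grik3 start had 812 reads in WT and 2460 in MommeD43, a difference of 1.29 (error 0.03), and 3 of the other raised regions of the run had larger ones (1.33, 1.55 and 1.61). With the GC trend taken off, 3 of the 13 stayed at or above 1. Along Asic2, an acid-sensing ion channel gene, and the following Tmem132e (chr11:80954901-82512550), 12 of 22 regions were raised, led by an intragenic region of Asic2 with 63.5 reads in WT and 384 in MommeD43, a difference of 2.29 (error 0.11), and 10 of the 12 stayed at or above 1 with the GC trend taken off.

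On chromosome 2, 10 of 26 regions from Mc3r past Tfap2c, an AP-2 factor of trophectoderm and germ cells, were raised (chr2:172242951-173418550), and all 16 others had a difference above 0. The region holding the Tfap2c start had 1123 reads in WT and 4155 in MommeD43, a difference of 1.58 (error 0.03). On chromosome 8, 9 of 11 regions within the annotated locus Gm20388 were raised at 1.07 to 1.42 (chr8:120866301-121456300). None of them held a protein-coding start, and their nearest starts were Irf8, Foxf1, Foxl1 and 1700018B08Rik. The region in this span that holds the starts of Foxf1, Foxc2 and Foxl1 was itself not raised (0.72). On chromosome 11, 9 of 13 regions from Dock2 to Slit3, a secreted axon guidance ligand, were raised (chr11:34139451-35387050), with 95.5 and 448 reads at the Slit3 start, a difference of 1.92 (error 0.09). With the GC trend taken off, 9 of 10 raised regions stayed at or above 1 in the Tfap2c run, 4 of 9 at Gm20388 and 7 of 9 at Slit3.

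In a stretch without protein-coding genes between Gpat3 and Nkx6-1 (chr5:101015901-101548450) all 5 regions were raised, at 1.44 to 2.20, with WT reads of 9.16 to 68.9. Their median GC content was 42.9%, below that of most autosomal regions, and all 5 stayed at or above 1 with the GC trend taken off. Elsewhere on chromosome 5, Gsx2, a homeobox factor of the ventral forebrain, Pdgfra, the PDGF receptor of oligodendrocyte precursors, and Kdr, a VEGF receptor, each had their start in a raised region (1.89, 1.92 and 1.11), while the 4 regions between them had a median of 0.13 and 2 were below 0.

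The remaining runs held 3 to 8 raised regions each. They lay at Wscd2 and Sgsm1 (8 of 10), Srrm4 and Ccdc60 (5 of 6), Jakmip1 to past Msx1 (5 of 12) and Tmem132d with Fzd10 (3 of 6) on chromosome 5, and at Phactr3 on chromosome 2 (5 of 11). In the run past Msx1, the weakest raised region lay in Jakmip1 (1.01). Its other raised regions were gene-free and nearest to Cytl1 or Msx1, while the Msx1 region itself was not raised (0.90). With the GC trend taken off, 3, 2, 1, 1 and 2 raised regions of these runs, in the order named, stayed at or above 1. The other runs were at Tmem200c, Epb41l3 and Akain1 on chromosome 17 (5 of 7), at Mpped1 (3 of 3) and in gene-free sequence (4 of 6) on chromosome 15, in gene-free sequence on chromosome 14 (4 of 4), at Kif17 and Pla2g2c on chromosome 4 (3 of 9), at Krt19 and Cavin1 on chromosome 11 (3 of 15) and at Dio3 with Traf3 on chromosome 12 (3 of 8). Here 4, 1, 3, 3, 1, 1 and 2, in the order named, stayed at or above 1 with the GC trend taken off. The Tmem200c region was the strongest of these on chromosome 17, with 30.4 reads in WT and 287 in MommeD43, a difference of 2.93 (error 0.16), 6028 bp from the gene's start.

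Dio3, which encodes the deiodinase that inactivates thyroid hormone, lies at one end of the imprinted Dlk1-Dio3 cluster. Its region (chr12:110273301-110285800) had 23.2 reads in WT and 185.7 in MommeD43, a difference of 2.69 (error 0.18), and the gene-free region 86718 bp from its start had 26.98 and 200.7 reads, a difference of 2.58 (error 0.17). At the other end, the region holding the Begain start had 502 and 2254 reads, a difference of 1.85 (error 0.04). No other region of the table lay between Begain and Dio3.

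The other starts among the 25 lay outside runs of 3 or more. Ebf1, a helix-loop-helix factor of B cells and neurons, had 226 reads in WT and 1549 in MommeD43, a difference of 2.46 (error 0.06), the largest of any listed transcription factor outside the T-box family. Foxc1, a forkhead factor of mesenchyme and eye, had 588 and 3186 reads, a difference of 2.13 (error 0.04). Both had wide regions, 24800 and 35150 bp, and enough WT reads for a small counting error. Tmem132c had 63.2 and 560 reads, a difference of 2.84 (error 0.11). The neurotrophin gene Ntf3 had 62.6 and 332 reads, a difference of 2.10 (error 0.11), and the cadherin gene Cdh8 had 65.6 and 319 reads, a difference of 1.97 (error 0.11). Lrfn2, a synaptic adhesion gene, started from only 21.2 WT reads and differed by 2.05 (error 0.20).

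The gene lists were read against all 4422 autosomal regions that hold a protein-coding start, of which 106 (2.40%) were raised with a median difference of 0.17. The regions holding a start of the 9 lists of transcription factors numbered 292. Of these, 19 (6.51%) were raised, and their median difference was 0.33. In the T-box list 3 of 12 regions were raised (Tbx3, Tbx5 and T, the mesoderm factor brachyury) with a list median of 0.45. A mixed list of AP-2, nuclear receptor, Eya, Maf, Dmrt and other factors had 4 of 24 (median 0.30). Its raised genes were the AP-2 genes Tfap2c and Tfap2d and the nuclear receptor genes Nr5a2 and Esrrg, while the AP-2 genes Tfap2a, Tfap2b and Tfap2e were held by regions that differed by 0.32, 0.99 and 0.49. Pax factors had 1 of 9 (Pax6; 0.35), forkhead factors 2 of 27 (Foxc1 and Foxp4; 0.23) and homeobox factors outside Hox 6 of 111 (Gbx2, Gsx2, Hlx, Prox1, Meox2 and Meis1; 0.37). Zinc finger developmental factors had 2 of 48 (Tshz3 and Prdm1; 0.34) and helix-loop-helix factors 1 of 50 (Ebf1; 0.29), a share below that of all start-holding regions. GATA and Sox factors had 0 of 5 and 0 of 7, with medians of 0.38 and 0.43. A difference above 0 was found for 10 of the 12 T-box regions and 99 of the 111 homeobox regions, and for 3009 of all 4422 start-holding regions (68.0%).

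Outside transcription factors, raised regions among the 50 of neurotransmitter receptor genes included those of Grik3, Chrm4 and Grm7 (list median 0.34), and cell adhesion and axon guidance genes had 3 of 37 (Slit3, Cdh8 and Ajap1; 0.16). Wnt, Fgf, Bmp and Hedgehog ligands had 2 of 45 (Wnt7b and Bmp4; 0.42) and potassium channel genes 2 of 49 (Kcnk4 and Kcnk9; 0.30). The 9 regions of Polycomb components and the 3 of cell cycle inhibitors held no raised region, with medians of 0.30 and -0.17. The Grm7 start had 39.9 reads in WT and 174.9 in MommeD43, a difference of 1.82 (error 0.15), the largest of the receptor genes, and Bmp4, a ligand of dorsal patterning, shared a region with Gm15217 and had 403 and 1534 reads, a difference of 1.62 (error 0.05).

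Genes of the labelled cell type served as a check. Of 16 neural stem cell genes, 5 had their start in any H3K27me3 region of the table (Pax6, Nes, Hes5, Prom1 and Hes1), against all 7 genes of other lineages and 29.0% of all 20780 autosomal protein-coding genes. Pax6, a factor of cortical radial glia, was the only raised one, with 189 reads in WT and 531 in MommeD43, a difference of 1.18 (error 0.07). Of the other-lineage genes T alone was raised, with 1128 and 3662 reads, a difference of 1.39 (error 0.03). The differences of Nes, Hes5, Hes1 and Prom1 were 0.56, 0.35, 0.01 and -0.59.

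The densest raised regions in MommeD43 included developmental genes and 1 repeat. The highest, 249 reads per kb against 88.9 in WT (chr17:39840201-39851800; difference 1.17), overlaps the 18S ribosomal RNA pseudogene Rn18s-rs5 and the non-coding RNA AY036118 in the RefSeq annotation. Reads from ribosomal DNA copies elsewhere in the genome may be placed here, so its value is uncertain. After it came T (134 reads per kb), Gad1, which makes GABA (122), Gsx2 (109), a region inside Meis1 (97.1) and Tbx3 (94.4). Nr5a2, Hlx, Foxc1 and Gbx2 followed at 92.5 to 90.2. Their WT densities, from 13.3 at Tbx3 to 49.2 at Gad1, were all above the autosomal median of 11.02, unlike those of most raised regions. A high MommeD43 density chose these regions, which favours high WT values, so the contrast is descriptive only.

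The longest raised regions were broad domains with differences near the threshold. The domain of Gbx2, a homeobox factor of the midbrain-hindbrain boundary, and Asb18 spanned 167450 bp and had 6010 and 15101 reads, a difference of 1.02 (error 0.01). The next were the domains of Sntb2 and Vps4a (110150 bp; 1.03), Sgsm1 and Aym1 (94400 bp; 1.05), Pla2g2c and Ubxn10 (87500 bp; 1.28) and the gene-free domain proximal to Grik3 (75350 bp; 1.203). The Tbx3 region followed closely in length (75050 bp) but differed by 2.51. In all, 15 raised regions (5.62%) reached 50 kb, against 6.06% of the others.

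Together the raised regions covered 4.83 Mb, or 2.22% of the length of the autosomal regions. They held 1.16% of the autosomal regions' normalized counts in WT and 2.52% in MommeD43.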

How the data were processed

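Per the labels and the study's methods, the authors trimmed reads with Trim Galore 0.4.4, aligned them with Bowtie2 2.3.4.1 to GRCm38.p6, called H3K27me3 peaks per genotype on merged replicates against WCE, widened and joined them in SeqMonk, and deposited log2 counts scaled to library size as 1 pooled mean per genotype. The labels describe nuclease digestion of nuclei and the methods shearing. WCE is not subtracted. No replicate test was possible.

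Averaging 3 log2 counts keeps the product of 3 whole read numbers, from which the value of 1 read was recovered (3.27 normalized counts in WT, 2.63 in MommeD43); 1138 of 1139 WT and 681 of 684 MommeD43 products under 30000 lay within 0.1 of a whole number. Intervals and errors cover counting only, and without molecular identifiers several reads may stem from 1 molecule. GC content and repeats came from GRCm38.p6, and genes from GENCODE release 21. Trends were running medians over 40 bins. The trend and read-unit code was tested on simulated data.

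The regions and gene lists were chosen with earlier results of these data known. Named were the 25 largest differences with at least 50 MommeD43 reads, runs of 3 or more within 1 Mb, 3 regions on each side of the threshold, the 10 densest and 5 longest, and up to 4 list genes per list; the Begain region, promoters, densest windows and further list members were added after values were seen. All 697 list genes but 1 were found in GENCODE, and 1 raised list gene is not reported here. Software was matplotlib 3.10.9, scipy 1.17.1, pandas 2.3.3 and numpy 2.4.6 under Python 3.11.15.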

Additional observations from a re-analysis of the deposited data

How the results depend on the processing

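Of 61 alternative values, 42 stayed within 1.5 times the count or within the exact interval of the value given. The number of raised regions, 267, was 138 after scaling to the total of all regions (a shift of -0.24 on the log2 scale), 143 where the whole 95% counting interval had to pass the threshold and 65 at a threshold of 1.5, each by construction a part of the 267. Median GC content minus that of other regions, 2.89 percentage points, reversed to -1.14 with the GC trend removed, which takes off the trend itself, and was 2.22 at 1.5. Log2 WT density minus that of others, -1.07, was -1.29 under that scaling, -1.56 at 1.5 and -1.27 when a trend with abundance was taken off. The share holding a protein-coding start was 32.9% with the GC trend removed and 49.8% for starts of any gene. The share with another raised region within 1 Mb was 54.6% with the GC trend removed, 58.0% with the counting interval past the threshold, 53.8% at 1.5 and 53.9% within 200 kb. The length ratio to other regions, 1.12, was 1.40 with the counting interval past the threshold. Leaving out the members of runs, chosen after seeing the data, left 132 regions, 2.15 percentage points of GC, a WT density difference of -0.68 and a start in 59.1%; leaving out chromosome 5, also added later, moved no value past these limits. No paired analysis was possible because the table holds 1 pooled column per genotype, and leaving out replicates was not run for the same reason. Fewer than 10 WT reads lay behind 8 raised regions, where a difference is least precise.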
